A study of Mus musculus with 4 samples.

Results

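The 10 genes described here, Upk3b, Upk1b, Msln, Lrrn4, Calb2, Gpm6a, Wt1, Nkain4, Bnc1 and Muc16, mark the mesothelium and the ovarian surface epithelium (OSE). They were taken by name from 18193 genes that the arrays name, with every probe set whose single gene symbol was 1 of them, and all 10 had a probe set, 15 in all. The 10 were chosen with earlier results of these data known. Counts, shares over all genes and p-values below therefore describe the set and are no independent test of it. RNA came from normal ovaries of ERα f/f mice and from ovarian tumors of ERα d/d mice, all C57BL/6 females, with 1 Affymetrix mouse array for each genotype at 5 months and at 10 months of age and RNA of 3 mice pooled for each array. Both genotypes carry the floxed ERα gene, and the ERα d/d mice also carry Cre recombinase knocked into 1 allele of the progesterone receptor gene, so that ERα is removed where that receptor is made. ERα f/f mice have no Cre. In stained sections the study found ERα gone from the anterior pituitary of ERα d/d mice and kept in their hypothalamus, OSE and tumor cells. The ages are those in the sample titles. A second label field gives 5 months for the 10-month ovary pool and 10 months for the 5-month tumor pool, so by that field genotype and age cannot be told apart, and both tumor pools would be 10 months old. The pools are called by their titles below, and the tests measure only the spread between pools.

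The OSE is a single layer of cells that covers the ovary and is continuous with the mesothelium lining the body cavity. It derives from coelomic epithelium, as does the epithelium of the oviduct, and it keeps mesothelial traits such as calretinin and WT1 beside simple keratins. The study stained tumor sections for calretinin, WT1, PAX8 and Ber-EP4 to ask whether the tumor epithelium resembles OSE or oviduct, and the transcripts of these proteins are included here. The values are MAS5 signals, a fluorescence intensity on a linear scale that the authors scaled to the same level on each array. The median signal of an array lay between 34.6 and 39.4, and the 12 probe sets for genes of the Y chromosome, absent from these females, had medians of 2.12 to 3.15 and reached 34.3 at most. Signals under the array's median are therefore read as low and give no fold change. Esr1, the gene of ERα, read 431 and 697 in tumor against 2232 and 2492 in normal ovary, in the order 5 and 10 months that is kept throughout. Over both ages Esr1 fell by 2.10 on the log2 scale (adjusted p = 0.0421 from limma, the test described below with the markers). The call depends on the test used. A Student test with Benjamini-Hochberg adjustment called 0 of the 11748 genes tested, so Esr1 was not called by it. The granulosa cell factor gene Foxl2 read 1429 and 1579 in normal ovary against 1714 and 2017 in tumor, so ovarian cells were represented in all 4 pools. With pooled tissue, more cells of a type and more RNA in each cell cannot be told apart.

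The signals of these markers set 1 pool apart from the other 3. In 9 of the 10 genes the 10-month tumor pool had the highest signal of the 4 arrays, and in 7 of them it was at least 2-fold above each of the other arrays. Over all 11748 genes tested, 30.1% had their highest signal in that pool and 1.66% were at least 2-fold above each other array there. The 5-month tumor pool was within 2-fold of the 5-month ovary pool for each of the 9 genes, as it was for most genes. Of all genes, 2.59% were higher there by 2-fold or more and 5.96% lower. Upk1b, Upk3b, Gpm6a, Lrrn4, Bnc1, Muc16 and Wt1 made up the 7, Nkain4 and Msln were higher by less, and Calb2, the gene of calretinin, was low on every array.

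**Figure D1:**
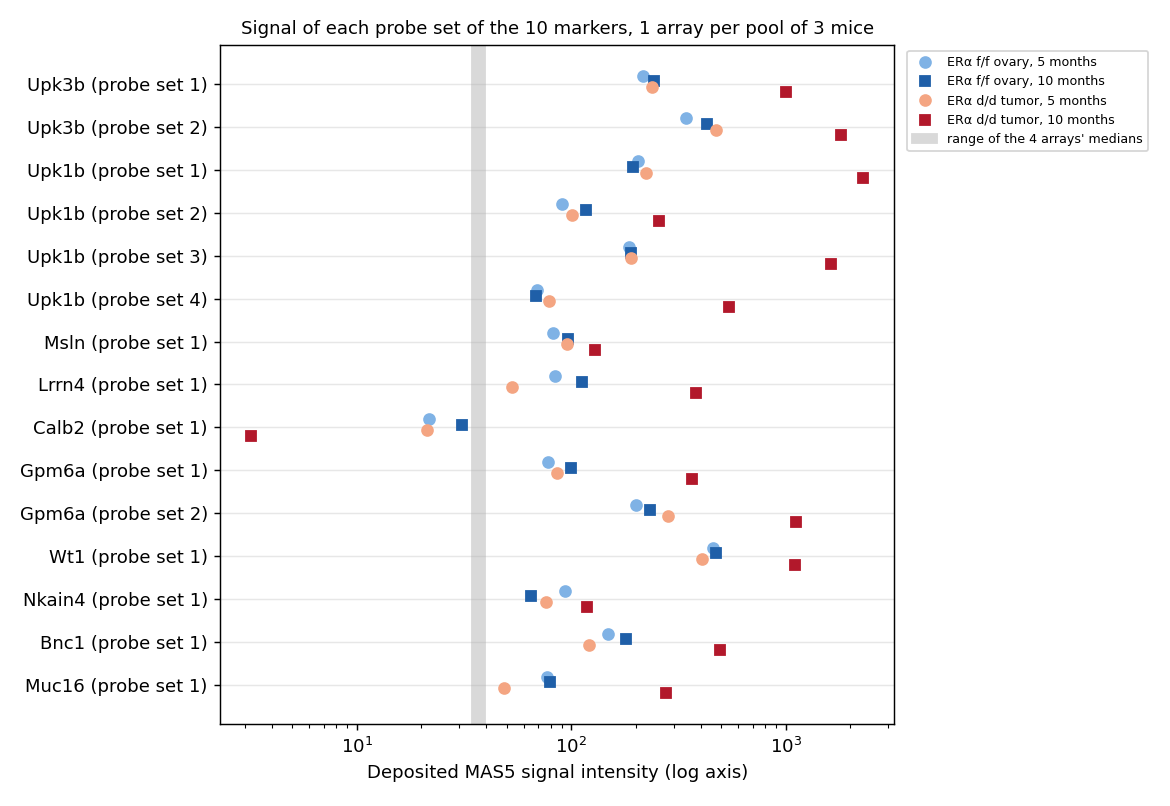
Deposited MAS5 signal (log axis) of the 15 probe sets of the 10 marker genes, with 1 point for each array and a gray band for the range of the arrays' medians. The 10-month tumor pool (dark red squares) lies to the right of the other 3 points in 14 probe sets, and Calb2 lies to the left of the band on all 4 arrays.

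Promoter sequences are shown for markers that stood apart together in the 10-month tumor and whose start sites are listed, to let their upstream regions be compared. They are the 250 bases before a start site in RefSeq's annotation of GRCm38.p6, written 5′ to 3′ on the gene's strand. Windows were listed for Upk3b, Lrrn4, Gpm6a (2 starts, the first shown), Bnc1 and Muc16, 6 windows of 5 of the 10 genes, and for Upk1b, Msln, Calb2, Wt1 and Nkain4 none was used here. Capitals mark matches on either strand to GGAATG, the core bound by TEAD factors, or to GCGNGGGNG, a pattern of the EGR and WT1 type.
Upk3b, chr5:136038246-136038495, plus strand: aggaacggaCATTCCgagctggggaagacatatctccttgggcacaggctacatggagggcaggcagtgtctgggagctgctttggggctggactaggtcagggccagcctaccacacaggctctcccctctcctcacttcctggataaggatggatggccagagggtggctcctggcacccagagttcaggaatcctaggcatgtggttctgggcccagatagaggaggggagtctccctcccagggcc
Gpm6a, chr8:54779184-54779433, plus strand: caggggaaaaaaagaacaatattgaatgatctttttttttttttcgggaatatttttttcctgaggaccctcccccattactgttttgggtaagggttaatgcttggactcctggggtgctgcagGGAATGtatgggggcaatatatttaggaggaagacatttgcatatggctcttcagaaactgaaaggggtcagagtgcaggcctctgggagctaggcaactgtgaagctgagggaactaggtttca
Lrrn4, chr2:132880863-132881112, minus strand: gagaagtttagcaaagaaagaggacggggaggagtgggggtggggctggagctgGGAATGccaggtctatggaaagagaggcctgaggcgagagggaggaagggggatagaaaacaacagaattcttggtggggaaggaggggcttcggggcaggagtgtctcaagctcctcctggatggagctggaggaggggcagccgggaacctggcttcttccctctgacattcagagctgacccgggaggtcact
Bnc1, chr7:81992300-81992549, minus strand: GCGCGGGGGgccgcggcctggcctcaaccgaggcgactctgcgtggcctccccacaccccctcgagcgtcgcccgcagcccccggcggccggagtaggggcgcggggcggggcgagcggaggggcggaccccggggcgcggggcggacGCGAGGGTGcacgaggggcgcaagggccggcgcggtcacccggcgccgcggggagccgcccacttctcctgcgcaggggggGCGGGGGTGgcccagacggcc
Muc16, chr9:18674604-18674853, minus strand: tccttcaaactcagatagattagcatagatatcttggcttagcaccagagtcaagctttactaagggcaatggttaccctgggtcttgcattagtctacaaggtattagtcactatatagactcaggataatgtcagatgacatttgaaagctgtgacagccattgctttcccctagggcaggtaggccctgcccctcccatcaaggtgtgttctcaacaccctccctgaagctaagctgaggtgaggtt

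GGAATG was found once each in the Upk3b, Gpm6a and Lrrn4 windows, starting 241, 125 and 196 bases before the start site, so in 3 of 6 windows of these genes and in 12.6% of all 32851 windows of this length. GCGNGGGNG was found in the Bnc1 window alone, at 3 places, and in 10.5% of all windows. The windows differ in composition, with 83.6% G or C in Bnc1, 60.8% in Upk3b, 59.2% in Lrrn4, 46.4% in Muc16 and 44.4% in the Gpm6a window shown. TGANTCA, the AP-1 site, and the palindromic estrogen response element were found in 0 of the 6 and in 6.75% and 0.0639% of all windows. No motif overlapped another in these windows. A match is a run of letters and was not tested as a binding site, and a window without one says nothing about the factor.

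Upk1b and Upk3b encode uroplakins, membrane proteins first known from the urothelium of the bladder that are also made by mesothelium. Upk1b had signals of 204 and 193 in the ovary pools, 223 in the 5-month tumor pool and 2297 in the 10-month tumor pool. The last was 10.3-fold above the 5-month tumor, which ranked Upk1b 6 of 11748 genes in that comparison. Upk3b had signals of 341 and 429 in the ovaries, 472 in the 5-month tumor and 1804 in the 10-month tumor. Both genes were nearly level in the first 3 pools and stood apart in the fourth. Upk1b was read by 4 probe sets, in which the 10-month tumor was 2.56-fold to 10.3-fold above the 5-month tumor, and Upk3b by 2, with 3.82-fold and 4.22-fold. The size of the Upk1b difference thus depends on the probe set, and its direction was the same in all 4. The other uroplakins, which together with these form the plaques of the urothelium, were low or near the arrays' medians. Upk2, Upk3a and the Upk3b-like gene Upk3bl were below the array's median on all 4 arrays, with the highest signal at 33.5, and Upk1a, at 50.1 and 42.0 in the ovaries and 35.4 in the 5-month tumor, was just above the median there and below it in the 10-month tumor (14.5).

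Msln encodes mesothelin, a surface glycoprotein of mesothelial cells, and Muc16 encodes the large mucin known as CA125, which binds mesothelin. Muc16 had signals of 76.6 and 79.5 in the ovaries, 48.7 in the 5-month tumor and 275 in the 10-month tumor, so it was lowest in 1 tumor pool and highest in the other, 5.65-fold apart. Msln had 82.2 and 95.9 in the ovaries against 94.9 and 129 in the tumors. Its 10-month tumor signal was 1.34-fold above the highest of the other arrays, the smallest such step but that of Nkain4 (1.27-fold). The 2 partners therefore differed in size on these arrays, Muc16 with a log2 difference of 2.50 between the tumor pools and Msln with 0.44. Of the other mucins, Muc1 had 46.2 and 66.3 in normal ovary against 11.7 and 13.6, below the median, in tumor (adjusted p = 0.0996 from limma), and the probe sets of Muc4 were low on all arrays.

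Lrrn4 and Gpm6a encode membrane proteins, the first with leucine-rich repeats and the second of the proteolipid protein family, and Nkain4 encodes a protein that interacts with the sodium pump. Lrrn4 had signals of 84.0 and 112 in the ovaries, 52.7 in the 5-month tumor and 380.2 in the 10-month tumor, 7.21-fold apart between the tumors and 14th of all genes by rank. Gpm6a had signals of 200.2 and 233 in the ovaries, 282 in the 5-month tumor and 1116 in the 10-month tumor, and its second probe set gave 77.7, 99.4, 85.9 and 365. Nkain4 had 93.3 and 64.9 in the ovaries against 76.3 and 119 in the tumors, a range in which the ovaries themselves were 0.52 apart on the log2 scale and the tumors 0.64. Lrrn4 and Gpm6a thus set the 10-month tumor apart from all other arrays, and for Nkain4 its step of 1.27-fold over the highest other array was smaller than the difference between the ovaries. The relative Gpm6b did not share the pattern, with 557 and 604 for the ovary pools against 655 and 361 for the tumor pools.

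Wt1 and Bnc1 encode zinc finger transcription factors, the first needed for the coelomic epithelium and gonad to form and the second, basonuclin, made in epithelia and germ cells. Wt1 had signals of 459 and 471 in the ovaries, 408 in the 5-month tumor and 1106 in the 10-month tumor, 2.35-fold above the highest other array. Bnc1 had 148 and 181 in the ovaries, 120.4 in the 5-month tumor and 492 in the 10-month tumor, 2.72-fold above the highest other array. Granulosa and stromal cells of the ovary are also known to make WT1, so its signal cannot be assigned to OSE. The summed signal of 10 granulosa genes was 20529 and 19043 for the ovary pools against 21519 and 19558 for the tumor pools. Single genes of the 10 were not all level against the ovary of the same age. At 5 months 0 were at least 2-fold higher in tumor and 1 lower, where 2.59% and 5.96% of all genes were. At 10 months 1 was higher and 2 lower, where 4.77% and 6.00% of all genes were. Between the tumor pools 1 of the 10 was at least 2-fold higher at 10 months and 2 were lower, where 4.02% and 3.40% of all genes were. Bnc2, the relative of Bnc1, was about level between the tumor pools, with 1575 and 1625 there against 1084 and 1032 in normal ovary (a difference of 0.60 ± 0.09 SE on the log2 scale, adjusted p = 0.0549 from limma).

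Calb2 encodes calretinin, the calcium-binding protein by which mesothelium is often recognised in sections. Its 1 probe set had signals of 21.6 and 30.9 in the ovaries, 21.1 in the 5-month tumor and 3.21 in the 10-month tumor. All 4 lie under the arrays' medians, so the gene was not tested and no fold is given. The transcript of the calretinin protein was in this way the 1 marker of the 10 whose order over the pools could not be read. The study saw calretinin protein in the OSE of ERα f/f ovaries and not in that of ERα d/d ovaries, which signals this low cannot test. Calb1 and S100g, 2 other calcium-binding EF-hand genes, were well measured in the ovaries. Calb1 had 1246 and 1482 in the ovaries, 232 in the 5-month tumor and 39.0 in the 10-month tumor (adjusted p = 0.106 from limma), and S100g had 208 and 219 in the ovaries, 38.3 in the 5-month tumor and 0.859 in the 10-month tumor (adjusted p = 0.220 from limma).

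Tumor and ovary were compared over both ages by limma, 2 arrays against 2, on the log2 scale with Benjamini-Hochberg adjustment over 11748 genes. All 9 genes that were tested were above the median on all 4 arrays, so none entered through its high pool alone. None passed an adjusted p of 0.05 in either direction, where 0.715% of all genes were higher and 1.06% lower, and 0 of the 9 had an unadjusted p under 0.05, against 8.10% of genes that were higher by that measure. The log2 fold changes over both ages ran from 0.29 for Nkain4 to 1.85 for Upk1b, with standard errors of 0.23 to 1.08, and the lowest adjusted p was 0.344, for Gpm6a. The median over the 9 was 0.57, against -0.02 over all genes. The spread between the tumor pools enters each of these errors, and a p that misses the threshold does not show that a marker was level. In 3 of the 9, Upk3b, Upk1b and Gpm6a, both tumor pools were above both ovary pools, as in 23.9% of all genes.

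Each tumor pool was therefore also set against the 2 ovary pools alone. Without the 5-month tumor, 7 of the 9 markers rose in the 10-month tumor at an adjusted p under 0.05 from limma, where 9.73% of all genes did. Upk1b rose by 3.53 ± 0.12 (SE) on the log2 scale (adjusted p = 1.11e-07 from limma), Gpm6a with 2.37 ± 0.14, Upk3b with 2.24 ± 0.15 and Lrrn4 with 1.97 ± 0.21. Muc16 with 1.82 ± 0.20, Bnc1 with 1.59 ± 0.17 and Wt1 with 1.25 ± 0.12 (adjusted p = 5.31e-05 from limma) rose as well, and Msln at 0.54 (adjusted p = 0.122) and Nkain4 at 0.61 (adjusted p = 0.146) did not pass. Without the 10-month tumor, 0 of the 9 were called higher, against 6.19% of all genes, and 0 lower, against 9.13%. The closest was Lrrn4, at -0.88 on the log2 scale (adjusted p = 0.0528 from limma). In both fits the single tumor array is assumed to vary as the ovary arrays do. Over all genes the log2 difference between the 2 ages had an SD of 0.60 among tumors and 0.29 among ovaries, so these p-values are too small as statements about tumors in general. They compare 1 pool of 3 mice with the ovaries, for genes chosen with earlier results of these data known.

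At single ages, 7 of the 9 were at least 2-fold higher in tumor than in ovary at 10 months and 0 at 5 months, where 4.77% and 2.59% of all genes were. None was 2-fold higher at both ages, against 1.29% of genes. At 5 months the 9 log2 differences ran from -0.67 to 0.49 with a median of -0.17, and at 10 months from 0.43 to 3.57 with a median of 1.76. Between the ovary pools they ran from -0.52 to 0.42, so no marker was 2-fold apart with age in the normal ovary, where 0.366% of all genes were at least 2-fold higher at 10 months and 0.553% lower. Of the 9, 5 were below the ovary at 5 months and above it at 10 months, as were 18.9% of all genes. Between the tumor pools, 7 were at least 2-fold higher at 10 months and 0 were lower, where 4.02% and 3.40% of genes were, and the median log2 difference was 1.98, against 0.01 over all genes. These ages rest on 1 array of each genotype, so none of these differences has a replicate.

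**Figure D2:**
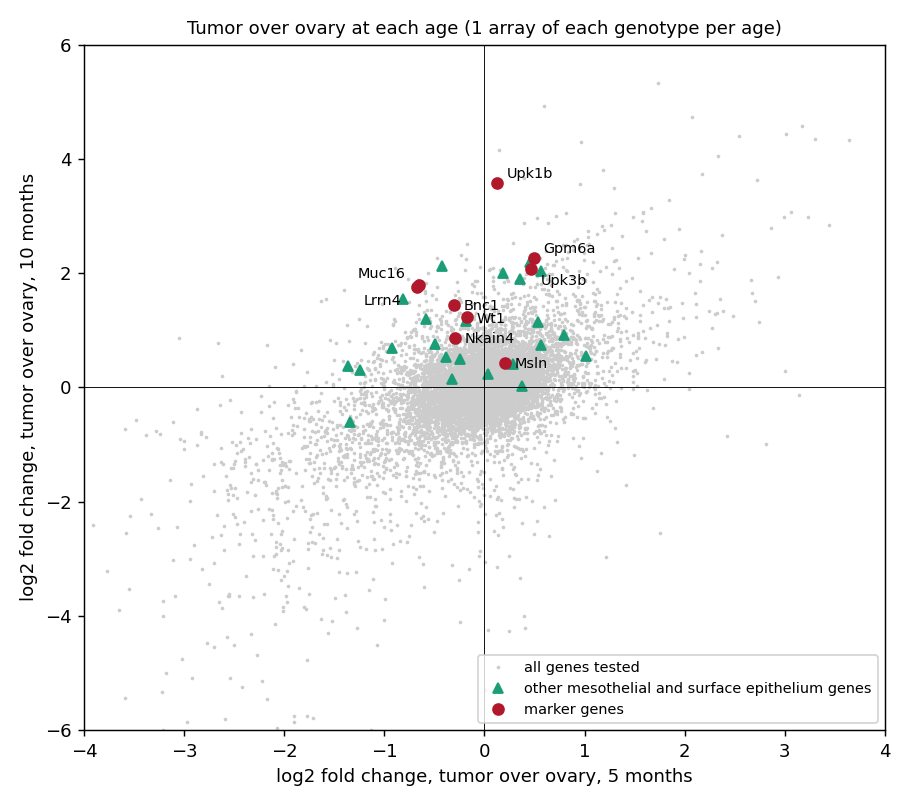
Log2 signal of tumor minus ovary, with the 5-month pair of arrays on the x axis and the 10-month pair on the y axis, for all 11748 genes tested (gray), the 9 tested markers (red circles) and 23 other mesothelial and OSE genes (green triangles), each from 1 array of each genotype per age. The markers lie between -0.67 and 0.49 on the x axis and above 0 on the y axis, and 26 genes fall outside the axes.

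Other genes known from mesothelium and OSE were read on the same arrays. Of 27 listed, 24 had a probe set and 23 were tested. With limma on all 4 arrays 1 of the 23 was called higher and 0 lower, where 0.715% and 1.06% of all genes were. That gene was Tcf21, a transcription factor gene of the coelomic and mesenchymal lineages, which rose to 1189 and 1249 in tumor from 687 and 657 in normal ovary (0.86 ± 0.09 SE on the log2 scale, adjusted p = 0.0408 from limma). It was level between the tumor pools, unlike the markers. It no longer passed in limma when age was added to the fit (adjusted p = 0.0793) or when its probe sets were averaged (0.126). With age in the fit only 33 of all genes passed, so a miss there is not particular to Tcf21. With single arrays left out its log2 difference ran from 0.82 to 0.89. The median log2 difference of the 23 over both ages was 0.35, against -0.02 over all genes. In the 10-month tumor alone against both ovaries 18 of 23 were called higher and 1 lower, where 9.73% and 11.6% of all genes were. In the 5-month tumor alone 4 were called higher and 6 lower, where 6.19% and 9.13% of all genes were. These calls too rest on 1 tumor array each. Between the tumor pools 12 of 23 were at least 2-fold higher at 10 months and 0 lower, where 4.02% and 3.40% of all genes were. The median difference was 1.02.

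The genes of this list named next, and Krt18 and Krt19 after them, were chosen after their values were seen. Aldh1a2, the retinaldehyde dehydrogenase of mesothelium, had 310 and 380.0 in the ovaries, 425 in the 5-month tumor and 1733 in the 10-month tumor. Lhx9, a transcription factor gene of the gonadal surface, had 104 and 164 in the ovaries, 154 in the 5-month tumor and 671 in the 10-month tumor. The tight junction gene Cldn15 had 53.9, 79.3, 61.2 and 318 on these arrays, and the keratin gene Krt7 had 199, 314, 254 and 1170.3. Lgr5, a receptor gene found in OSE cells with stem cell properties, had 154 and 158 in the ovaries, 115 in the 5-month tumor and 686 in the 10-month tumor, and its ligand gene Rspo1 had 158, 161, 89.8 and 472. These 6 stood highest in the 10-month tumor, each at least 2-fold above the other arrays, as did 7 of the 23 in all and 1.66% of all genes. Other genes of the list did not share this. Gas1 had 2527 and 2230 in the ovaries against 997 and 1463 in the tumors. Efemp1 (2205 and 2007) and Igfbp6 (1330 and 1109) were lower in the 10-month than in the 5-month tumor. Aldh1a1 was about level, with 9932, 9095, 10183 and 10643.

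Krt8, Krt18 and Krt19, keratins of simple epithelium like Krt7, behaved otherwise than Krt7. Krt8, the gene of cytokeratin 8, which the study used as its epithelial marker, had 978 and 1137 in the ovaries, 414 in the 5-month tumor and 1400.4 in the 10-month tumor. Krt18 had 900.5, 1104, 473 and 1781, and Krt19 had 666, 741, 259 and 963. For all 3 the 5-month tumor was below both ovaries and the 10-month tumor above them, by 1.23-fold to 1.61-fold over the highest other array. In the fit of the 5-month tumor against both ovaries Krt8 fell by 1.35 on the log2 scale (SE 0.13, adjusted p = 8.28e-05 from limma). In that of the 10-month tumor it rose by 0.41 (SE 0.12, adjusted p = 0.0388 from limma). The 2 tumor pools thus gave opposite calls for this gene.

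**Figure D3:**
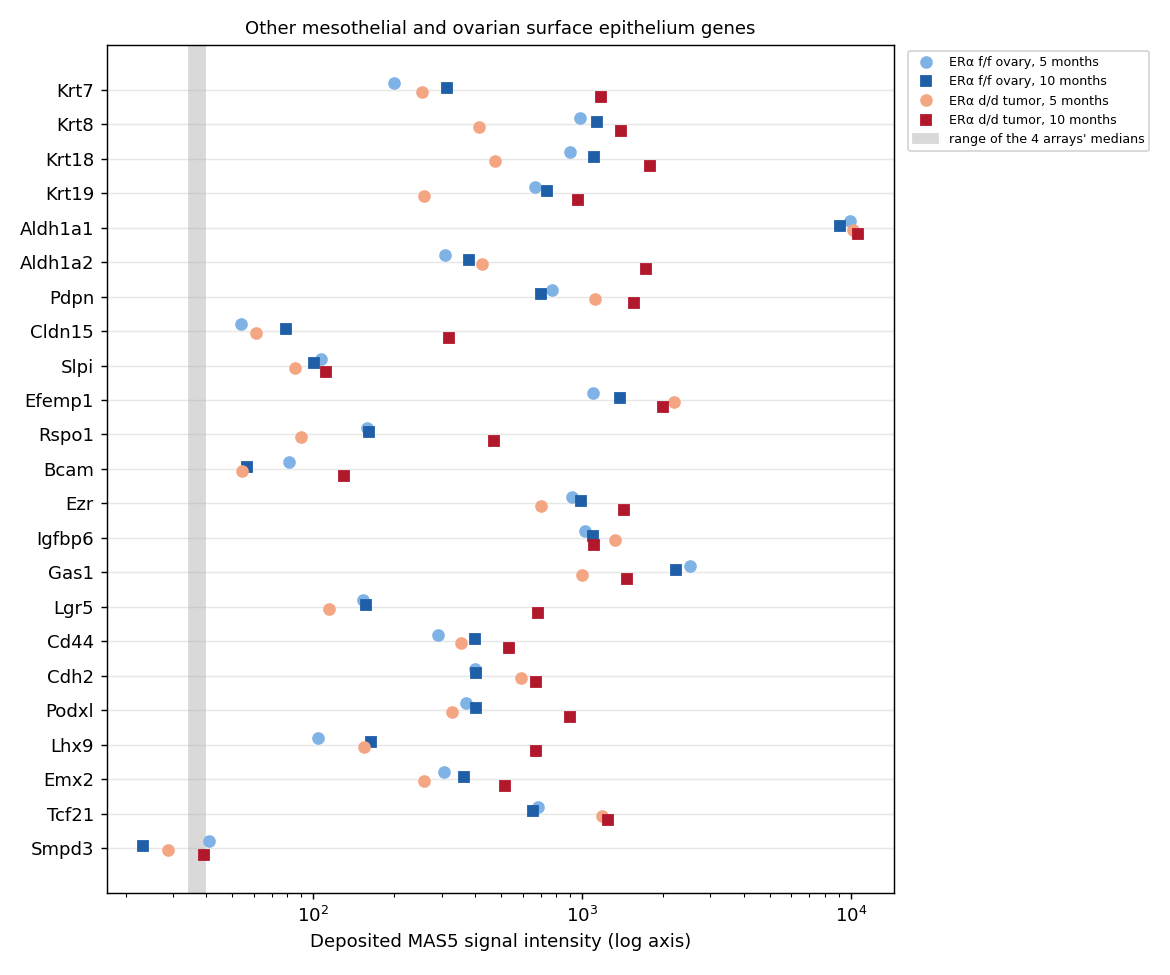
Deposited MAS5 signal (log axis) of the 23 tested genes of the wider mesothelial and OSE list on the 4 arrays, 1 point for each pool of 3 mice, with a gray band for the range of the arrays' medians. The 10-month tumor pool is the highest point in 19 of them, and Krt8, Krt18 and Krt19 have their lowest point in the 5-month tumor pool.

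Relatives of the markers in their gene families were compared to see whether families moved as a whole. Of 18 listed, 15 had a probe set and 9 were tested, of which limma called 0 higher and 1 lower, where 1.77% of all genes were called in either direction. Lrrn1, a relative of Lrrn4, fell to 160 and 126 in tumor from 349 and 370 in normal ovary (-1.34 ± 0.16 SE on the log2 scale, adjusted p = 0.0422 from limma). It no longer passed when age was added to the limma fit (adjusted p = 0.0745), where only 33 of all genes did. With single arrays left out its log2 difference ran from -1.51 to -1.17. Against the ovary of the same age, 4 of 9 relatives were at least 2-fold lower in tumor at 5 months and 5 at 10 months, where 5.96% and 6.00% of all genes were. None was 2-fold higher at either age, and some of the lower ones had tumor signals under the median. Between the tumor pools 1 of 9 was at least 2-fold higher at 10 months and 3 were lower, where 4.02% and 3.40% of all genes were. The higher one was Nkain2, whose signals of 13.5 and 41.8 in tumor stood against 17.7 and 36.2 in normal ovary, all near or below the median.

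The study read WT1 beside PAX8 and Ber-EP4, an antibody to EpCAM, as markers of the oviduct type. By staining, it found these proteins markedly raised in ERα d/d ovaries and lacking in ERα f/f ovaries. Pax8 fell at least 2.83-fold, the bound set by the arrays' medians, from 100.1 and 103 in normal ovary to 27.1 and 24.6, both below the median, in tumor (adjusted p = 0.0433 from limma). It did not pass when age was added to the fit (0.0882) or either ovary array was omitted (0.485 and 0.532). Epcam had 594 and 723 in the ovaries, 251 in the 5-month tumor and 634 in the 10-month tumor (-0.72 ± 0.45 SE on the log2 scale over both ages, adjusted p = 0.467 from limma). Among these transcripts, Wt1 was therefore highest in the 10-month tumor, Pax8 was low in both tumor pools and Epcam was lowest in the 5-month tumor. Pax8 and Epcam RNA thus did not rise as the staining did, and Wt1 RNA was measured in normal ovary too, at 459 and 471. RNA of whole pooled tissue and protein in sections from mice of another age are unlike measures, so these values do not test the staining. The summed signal of 12 oviduct genes was 14961 and 14673 for normal ovary against 5156 and 2343 for tumor. Most of it came from Ovgp1, the gene of oviductin, with 11597 and 11819 in normal ovary against 4108 and 918 in tumor. Of the 11 tested, 10 were at least 2-fold lower in tumor at 5 months and 7 at 10 months, where 5.96% and 6.00% of all genes were. Whether the pools held unlike amounts of oviduct, and its part in the Pax8 and Epcam values, was not tested. Without Ovgp1 the sums were 3364 and 2854 against 1048 and 1425, so that they were below the ovary in both tumor pools but no longer lower in the 10-month than in the 5-month tumor. Between the tumor pools 3 of the 11 tested were at least 2-fold higher at 10 months and 1 was lower, where 4.02% and 3.40% of all genes were. Over both ages limma called 4 of the 11 lower, where 1.06% of all genes were, but with age in the fit only 33 genes of all were called, and with either ovary array omitted 0 were.

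Several other cell type lists also differed between the tumor pools, and their part in the marker result was not tested. Of all genes, 4.02% were at least 2-fold higher in the 10-month than in the 5-month tumor and 3.40% lower. The summed signal of 9 macrophage genes was 4757 and 4349 for the ovary pools against 10511 and 20521 for the tumor pools, and 3 of 9 were at least 2-fold higher in the 10-month than in the 5-month tumor. That of 8 smooth muscle genes was 19347 and 22369 against 11400 and 4757, with 6 of 8 at least 2-fold lower at 10 months. The 5 adipocyte genes that had a probe set summed to 3834 and 2568 in normal ovary against 2000 and 1620 in tumor. Of their 4 tested genes, 3 were at least 2-fold lower in the 10-month tumor than in the 5-month tumor and 0 higher. Genes of epithelium in general (11 genes) summed to 5284 and 5906 in normal ovary against 1602 and 2616 in tumor. Of the 10 tested, 3 were at least 2-fold higher in the 10-month than in the 5-month tumor and 1 lower. The 7 theca, interstitial and luteal genes summed to 36192 and 30938 against 30605 and 31058, with 0 at least 2-fold higher and 2 lower in the 10-month than in the 5-month tumor. Their sum hides single genes. Against the ovary of the same age, 1 of the 7 was at least 2-fold higher in tumor and 2 lower, at each age. Of all genes, 2.59% and 5.96% were at 5 months, and 4.77% and 6.00% at 10 months. The sum of 6 Sertoli genes, 8101 and 7256 against 9225 and 10384, was mostly Clu, a gene made by many cell types. Without Clu it was 1111 and 896 against 578 and 1344, and the median log2 difference of the 5 tested was -0.73 at 5 months and 0.44 at 10 months. The sums without the brightest gene were computed after the data had been seen. The ratio of 3′ to 5′ control probe sets for Gapdh, which rises as RNA is shortened, was 1.09 to 1.13 on the first 3 arrays and 1.41 on the 10-month tumor array. For actin it was 2.33 to 2.52 and 2.96. The summed signal of the 10 markers themselves was 1711 and 1891 in the ovaries, 1799 in the 5-month tumor and 7722 in the 10-month tumor.

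**Figure D4:**
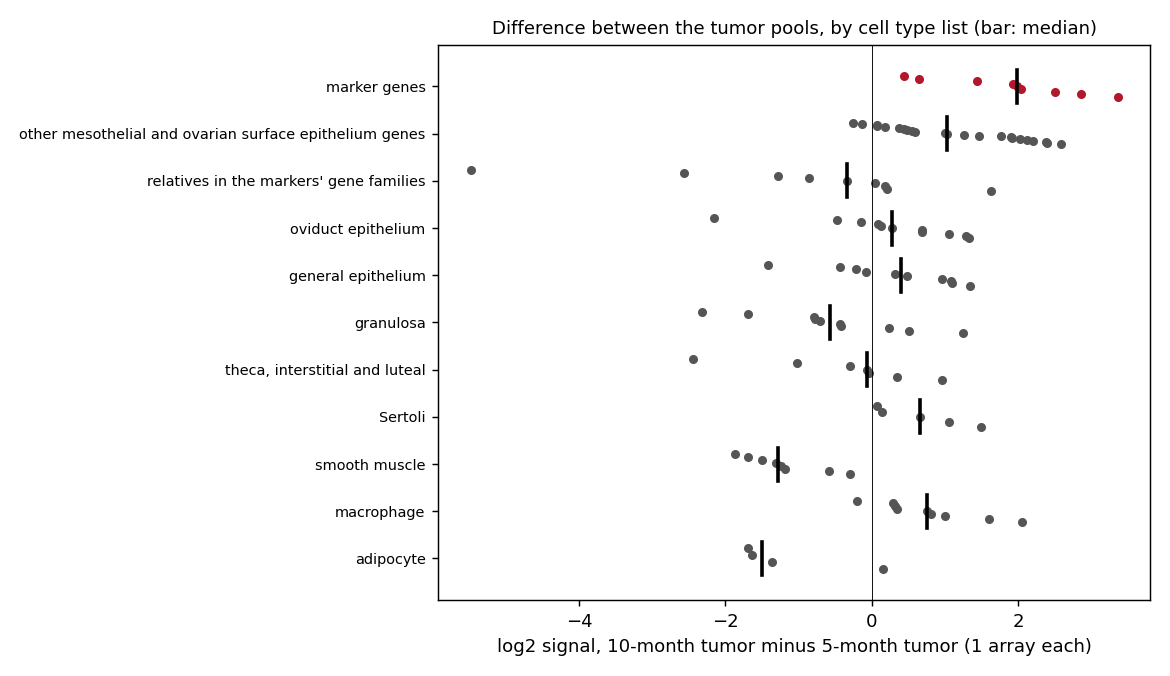
Log2 signal of the 10-month tumor minus the 5-month tumor, 1 array each, for the tested genes of 11 lists. Points stand for single genes and bars for list medians. The markers (red) lie between 0.44 and 3.36 with a median of 1.98, the wider mesothelial and OSE list has a median of 1.02, and the smooth muscle and adipocyte lists have medians of -1.28 and -1.50.

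All tested genes other than the markers were ranked by how near their log2 pattern over the 4 arrays came to the median pattern of the 9 markers. The measure was Euclidean distance after centring each gene. The nearest 5 were Ildr2, Irf5, Slc35f1, Slc4a11 and Anpep, at distances of 0.27 to 0.30. Ildr2, a membrane protein gene of the immunoglobulin superfamily, had 480.0 and 489 in the ovaries, 511 in the 5-month tumor and 1872 in the 10-month tumor. Anpep, the gene of aminopeptidase N, had 84.3 and 100.0 in the ovaries, 70.3 in the 5-month tumor and 324 in the 10-month tumor. With 4 arrays and 1 that stands apart, this likeness describes these pools only.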

How the data were processed

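The authors deposited 1 MAS5 signal intensity for each of 45101 probe sets and 4 arrays, on a linear scale, made in Affymetrix Expression Console 1.1 per the labels. Each array had a mean of 150.0 without its lowest and highest 2% of values, so signals are relative and carry no counts, and the number of arrays limits the precision. A probe table names 1 gene for 34945 probe sets, and 34741 of these were matched to RefSeq symbols (GRCm38.p6). No pseudocount was added before log2. Probe sets above the array's median on at least 2 arrays were kept, and a gene was read from its brightest one, which gave 11748 genes. The limma package (version 3.58.1, R 4.3.3) with eBayes and a variance trend was tested on simulated data and fitted without an age term, with a prior of 2.94 degrees of freedom beside 2 residual ones. No source says that arrays of the same age share a batch. Alternatives covered normalization, pseudocount, floor, filter, probe sets, age as a block, the variance trend, a Student test and each array left out. The 10 genes and 12 lists were chosen with earlier results of these data known. By the rule for named genes, these were the markers, of each other list the called genes or else the 4 with the largest change, the 5 nearest patterns, Pax8, Epcam and Krt8. Lists of other cell types are given as counts, sums and medians, so their called genes are not all named. Ovgp1 and Clu are named as the brightest genes of their lists. Family relatives other than Lrrn1, and Foxl2 as a defining ovarian gene, lie outside the rule and were chosen after their values were seen. Esr1, given as the floxed gene, also lies outside the rule. Figures were drawn with matplotlib 3.10.9.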

Additional observations from a re-analysis of the deposited data

Results flagged for a closer look

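The difference between tumor and ovary had opposite signs at 5 and at 10 months for 5 of the markers, below the ovary in the first pair of arrays and above it in the second. The 10-month difference exceeded the 5-month one by 2.45 on the log2 scale for Muc16, 2.43 for Lrrn4, 1.75 for Bnc1, 1.40 for Wt1 and 1.16 for Nkain4. The same change of sign was seen in Lgr5 (2.54), Rspo1 (2.37), Krt19 (1.74), Krt18 (1.62) and Krt8 (1.54). These differences between ages were not tested, since each rests on 1 array of each genotype and an interaction leaves no residual degree of freedom, and 18.9% of all genes changed sign in this direction.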

How the results depend on the processing

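The number of markers called over both ages was 0 under every alternative that kept all 4 arrays, including the Student test before and after adjustment, and ran from 0 to 7 for higher calls when single arrays were left out, the 7 without the 5-month tumor array. The 7 markers at least 2-fold higher in the 10-month than in the 5-month tumor and the 0 at both ages did not change under the alternatives run for them, of which equal 75th percentiles, averaged probe sets and no filter were chosen after seeing the data. The 1 higher call of the wider mesothelial list became 0 with averaged probe sets, age as a replicate block, no variance trend and the adjusted Student test, and 3 with the unadjusted one. It ran from 0 to 18 with single arrays left out, and the 0 lower calls from 0 to 6. For the gene family relatives, added after seeing the data, 1 was higher with the pseudocount, the floor and the unadjusted Student test, and 0 to 1 with arrays left out. Their 1 lower call became 2 with the floor and the unadjusted Student test and 0 with the replicate block, no trend and the adjusted Student test, and ran from 0 to 6 with arrays left out. Arrays of the same age did not deviate together (r = 0.05 across genes), and with age as a block 33 genes in all were called instead of 208, with 78 without the trend, 318 with the pseudocount, 329 with the floor, 0 by the adjusted and 1561 by the unadjusted Student test, and 0 to 2501 with single arrays left out.

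With single arrays left out, log2 fold changes of tumor over ovary changed sign for these genes, with the cause not tested beyond the array omitted: Lrrn4 (-0.88 to 1.97), Wt1 (-0.19 to 1.25), Nkain4 (-0.028 to 0.61), Bnc1 (-0.44 to 1.59), Muc16 (-0.68 to 1.82), Cldn15 (-0.095 to 2.28), Lgr5 (-0.44 to 2.14), Rspo1 (-0.83 to 1.57), Krt8 (-1.35 to 0.41), Krt18 (-1.07 to 0.84) and Krt19 (-1.44 to 0.45). Upk3b (0.30 to 2.24), Upk1b (0.17 to 3.53), Gpm6a (0.38 to 2.37) and Msln (0.10 to 0.54) kept theirs.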
